A study of Mus musculus with 4 samples.

Results

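A set of 9 genes of capillary fatty acid handling was followed in mouse hindlimb muscle after fractionated X-rays: the fatty acid carriers Fabp4 and Fabp5, the uptake receptor Cd36, the lipase Lpl and its capillary anchor Gpihbp1, the regulators Pparg, Meox2 and Tcf15, and the retinol carrier Rbp7. They were chosen by symbol, as 9 of 32285 genes counted, with earlier results of these data known. All 9 were found once in each count table. Single cells of male C57Bl/6J mice were measured by 3′ RNA sequencing in 4 libraries. In the IR libraries one hindlimb had received 3 fractions of 8.2 Gy at an age of 5 weeks, with the rest of the body under lead. The CON libraries hold the opposite, shielded limbs of irradiated mice, so no limb of an unirradiated animal stands beside them. Limbs were taken 24 hours after the last fraction (IR 24-hours, CON 24-hours) or 56 days after irradiation (IR 56-days, CON 56-days). Each library pooled 3 limbs from which connective and fat tissue had been cut away, and live mononucleated cells were sorted. With 1 library per group, a ratio of IR to CON compares 2 libraries and has no replicate error; its 95% interval is an exact conditional binomial one and covers counting error alone.

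Capillary endothelium of muscle passes fatty acids from blood to fibres. Lipoprotein lipase, made in parenchymal and other cells, is carried across the capillary wall by Gpihbp1 and releases fatty acids from triglyceride-rich lipoproteins at the vessel surface. Cd36 takes up long-chain fatty acids, Fabp4 and Fabp5 carry them in the cytosol, and the nuclear receptor Pparg drives transcription of Cd36 and Fabp4 in endothelium and fat cells. Meox2 and Tcf15 are transcription factors that act as a pair in heart endothelium, where they raise fatty acid uptake genes, and Rbp7 is a Pparg target of endothelium that binds retinol.

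In the GRCm38 build (mm10) with GENCODE vM21, Fabp4 (ENSMUSG00000062515) lies on chromosome 3 at 10204088 to 10208576 on the minus strand. Its paralogue Fabp5 (ENSMUSG00000027533) lies on the same chromosome at 10012548 to 10016607 on the plus strand. Cd36 (ENSMUSG00000002944) spans chromosome 5 from 17781690 to 17888801 (minus), Gpihbp1 (ENSMUSG00000022579) chromosome 15 from 75596628 to 75599481 (plus), and Lpl (ENSMUSG00000015568) chromosome 8 from 68880491 to 68907448 (plus). Pparg (ENSMUSG00000000440) spans chromosome 6 from 115360951 to 115490399 (plus) and Rbp7 (ENSMUSG00000028996) chromosome 4 from 149449687 to 149454978 (minus). Meox2 (ENSMUSG00000036144) spans chromosome 12 from 37108540 to 37179534 (plus), and Tcf15 (ENSMUSG00000068079) chromosome 2 from 152143561 to 152149097 (plus).

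RefSeq promoter windows (build GRCm38.p6, 250 bases before a start and a short stretch after it) were held for Cd36, Rbp7 and Meox2 and, at 3 starts, for Pparg. The nuclear receptor half-site AGGTCA was searched on both strands, because Pparg binds paired copies of it. A copy was in the Cd36 window, which lies within the gene's span and not before its annotated 5′ end. The first and second Pparg windows held 1 copy each, 28 to 23 and 9 to 4 bases before their starts. Thus 3 of 6 windows held the half-site, beside 4607 of 32851 windows (14.0%) over all genes. Both Pparg copies lie past the first annotated exon base of their windows. The exon-free stretches before that base, of 57 and 193 bases, held 0 copies. None of the 6 windows held the paired form AGGTCANAGGTCA, which stood in 11 of all windows (0.0335%). The 3 stretches below are each free of annotated exons. They belong to Cd36 and Rbp7, which were lower in IR endothelium at 24 hours, and to Meox2, which was higher. Pparg was lower too, but none of its stretches is shown. Capitals mark the half-site on the minus-strand Cd36 stretch (chr5:17835897-17836146), where it reads TGACCT, the reverse complement of AGGTCA. The Rbp7 stretch is chr4:149454979-149455218 (minus strand) and the Meox2 stretch chr12:37108290-37108539 (plus strand), both with no match. A match in these letters is a description of sequence and says nothing on binding.
Cd36: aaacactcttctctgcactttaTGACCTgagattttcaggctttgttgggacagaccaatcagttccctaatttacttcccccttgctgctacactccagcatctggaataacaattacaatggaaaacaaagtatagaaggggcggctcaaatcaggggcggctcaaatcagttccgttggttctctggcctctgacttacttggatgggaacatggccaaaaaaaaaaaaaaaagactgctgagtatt
Rbp7: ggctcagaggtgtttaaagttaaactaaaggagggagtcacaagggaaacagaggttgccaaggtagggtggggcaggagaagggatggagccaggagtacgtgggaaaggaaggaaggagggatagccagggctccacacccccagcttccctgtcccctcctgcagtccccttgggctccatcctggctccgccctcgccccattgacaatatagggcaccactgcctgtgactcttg
Meox2: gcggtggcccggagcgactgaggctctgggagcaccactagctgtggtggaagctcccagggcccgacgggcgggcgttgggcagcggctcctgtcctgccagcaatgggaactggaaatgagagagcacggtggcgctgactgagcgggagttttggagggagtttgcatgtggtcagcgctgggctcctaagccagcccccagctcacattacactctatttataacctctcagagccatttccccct

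The count tables held 2763 barcodes (IR 24-hours), 1471 (CON 24-hours), 1030 (IR 56-days) and 1822 (CON 56-days), with 4715202 to 10121978 UMIs (unique molecules) per library. After barcodes under 200 genes, under 500 UMIs or over 20% mitochondrial UMIs had been dropped, 6544 of 7086 remained, and their median UMIs were 3057 to 3627 per library. Cdkn1a, the p53 target that irradiation induces, checked the labels, at 1832 CPM (UMIs per 1000000 UMIs of the same cells) in IR 24-hours and 165.6 in CON 24-hours, and 793 in IR 56-days and 106.5 in CON 56-days. Cell classes were gated on marker genes that include none of the 9 members. The endothelial gate took 1599 cells of IR 24-hours, 491 of CON 24-hours, 491 of IR 56-days and 812 of CON 56-days, 3393 in all, and every one of its 14 markers was detected in every library. Within it 2435 cells carried capillary, 430 arterial and 150 venous markers. The fibro-adipogenic progenitor (FAP) gate held 274 cells and the macrophage gate 174. A count of 11 barcode sequences occurred in more than 1 library, 1 to 3 for any pair of libraries. The level of a gene below is its summed UMIs over a gate scaled to the gate's total UMIs. Levels are compared between cells, never between genes, because 3′ counting has gene-specific efficiency.

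All 9 members were detected in endothelium above the level of free RNA. Fabp4 UMIs were found in 99.0% of endothelial cells of IR 24-hours, 99.6% of CON 24-hours, 98.6% of IR 56-days and 99.3% of CON 56-days. B cells, which should lack it and had medians of 3050 to 3261 UMIs beside 2984 to 3613 in endothelium, showed it in 6.80%, 10.7%, 9.84% and 4.05% of cells of these libraries, which sets the level of free RNA. The share of endothelial cells with a UMI was more than 3 times the B-cell share for each of the 9 genes in each library, also after each cell was thinned to 1000 UMIs.

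At 24 hours after irradiation, IR endothelial cells held less RNA of 8 of the 9 genes, and Meox2 alone was higher. The genes at least 1.5-fold lower numbered 4 (Fabp4, Fabp5, Pparg and Rbp7), and 0 were 1.5-fold higher. Of all 11339 genes measured in that gate, 5.89% were at least 1.5-fold lower and 17.4% at least 1.5-fold higher. The median log2 ratio of the 9 genes was -0.53, beside 0.08 over all measured genes. Because the 9 genes were chosen with earlier results of these data known, their counts and medians beside all genes are descriptions at either time. At 56 days 2 genes, Cd36 and Pparg, were at least 1.5-fold lower and 0 higher, where 13% of 10491 genes were lower and 12.7% higher, and the median was -0.40, beside 0.02 over all genes.

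**Figure D1:**
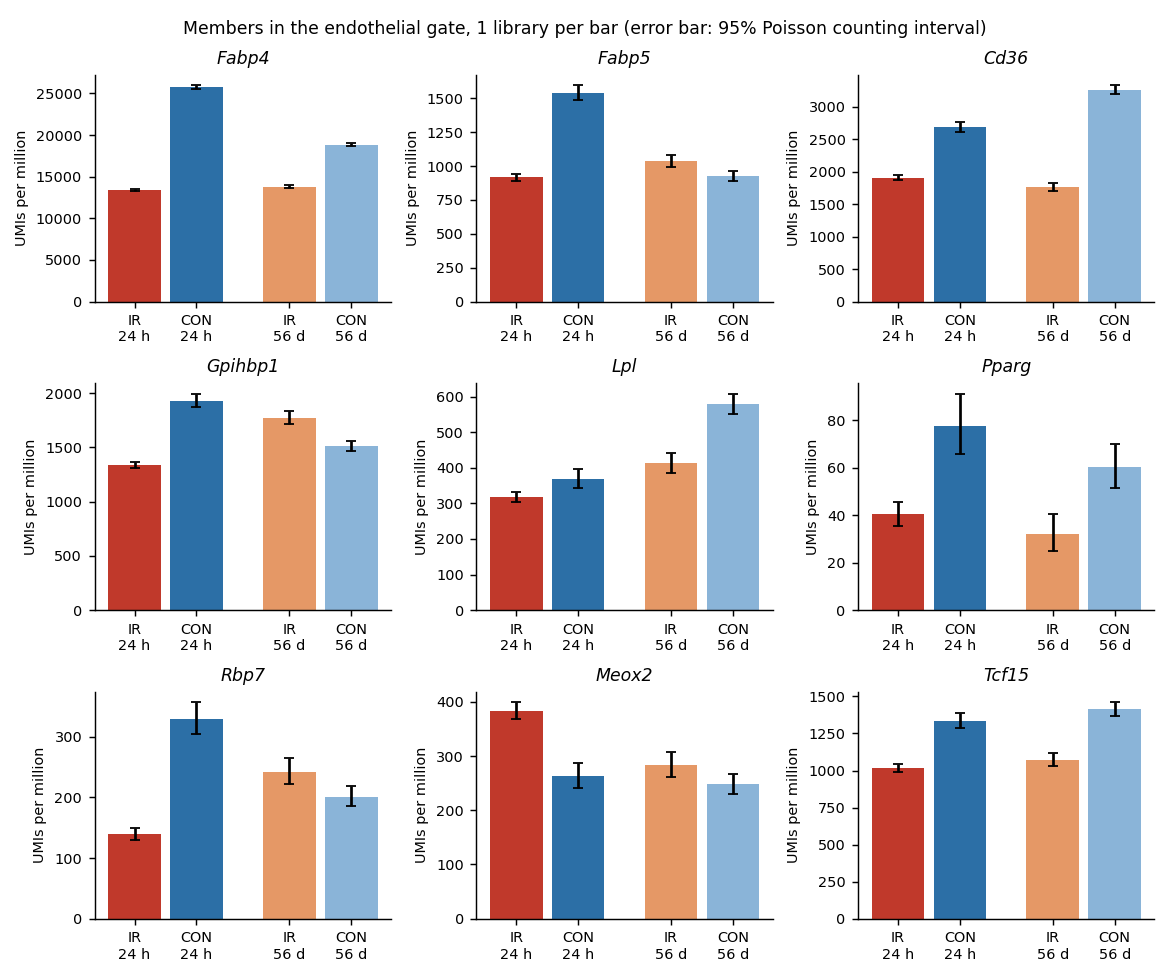
Level of each of the 9 genes in the endothelial gate (CPM, vertical axis from 0) in the 4 libraries, IR left of CON at each time, with exact Poisson intervals for counting error. Fabp4 is lower in both IR libraries (13375 and 13817 CPM) than in both CON libraries (25734 and 18824 CPM), and Meox2 is highest in IR 24-hours (383 CPM).

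Among the carriers, Fabp4 had 13375 CPM in IR 24-hours and 25734 in CON 24-hours, and 13817 in IR 56-days and 18824 in CON 56-days. Both IR libraries lay below both CON libraries. The ratio of IR to CON was 0.520 (0.514 to 0.526) at 24 hours and 0.734 (0.724 to 0.745) at 56 days. Fabp5, a carrier also made in many other cell types, had 916 CPM in IR 24-hours and 1539 in CON 24-hours, and 1035 in IR 56-days and 924 in CON 56-days. CON 24-hours stood above the other 3 libraries, which lay close together. Its ratio was 0.595 (0.569 to 0.622) at 24 hours and 1.12 (1.06 to 1.19) at 56 days.

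The uptake receptor Cd36 had 1908 CPM in IR 24-hours and 2690.3 in CON 24-hours, and 1763 in IR 56-days and 3261 in CON 56-days. As for Fabp4, the 2 IR levels lay below the 2 CON levels. For Cd36, unlike Fabp4, the gap was wider at the later time. The ratio was 0.709 (0.686 to 0.733) at 24 hours and 0.541 (0.520 to 0.562) at 56 days. Cd36 was detected in 89.4% of IR and 92.3% of CON endothelial cells at 24 hours, and in 87.4% of IR and 94.3% of CON cells at 56 days. With each cell thinned to 1000 UMIs the shares were 75.5% in IR and 87.4% in CON at 24 hours, and 68.4% in IR and 90.2% in CON at 56 days.

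Lpl and its anchor lay within 1.5-fold of CON at both times. Gpihbp1, the anchor that moves Lpl to the vessel lumen, had 1335 CPM in IR 24-hours and 1929 in CON 24-hours, and 1773 in IR 56-days and 1514 in CON 56-days. It was thus lower in IR at the first time and higher in IR at the second, with ratios of 0.692 (0.665 to 0.719) and 1.17 (1.12 to 1.22). Lpl itself had 319 CPM in IR 24-hours and 369 in CON 24-hours, and 412 in IR 56-days and 579 in CON 56-days. Its ratio was 0.863 (0.792 to 0.942) at 24 hours and 0.712 (0.655 to 0.774) at 56 days, and both later libraries lay above both earlier ones.

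Of the regulators, Pparg was sparse, with 245 UMIs in IR 24-hours and 150 in CON 24-hours, and 67 in IR 56-days and 169 in CON 56-days. These are 40.4 CPM in IR 24-hours and 77.7 in CON 24-hours, and 31.9 in IR 56-days and 60.2 in CON 56-days. Both IR libraries lay below both CON libraries, with ratios of 0.520 (0.423 to 0.641) at 24 hours and 0.530 (0.394 to 0.708) at 56 days. The share of endothelial cells with a Pparg UMI was 11.7% in IR and 20.8% in CON at 24 hours, and 11% in IR and 17.5% in CON at 56 days. Rbp7 had 139.6 CPM in IR 24-hours and 329.8 in CON 24-hours, and 243 in IR 56-days and 201 in CON 56-days. Its ratio of 0.423 (0.381 to 0.470) was the lowest of the 9 at 24 hours, and the ratio at 56 days was 1.21 (1.07 to 1.36).

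Meox2 and Tcf15, the paired factors, lay on opposite sides of 1. Meox2 had 383 CPM in IR 24-hours and 264 in CON 24-hours, and 284 in IR 56-days and 248 in CON 56-days, so IR 24-hours stood above the other 3 libraries. Its ratio was 1.45 (1.32 to 1.60) at 24 hours and 1.14 (1.02 to 1.28) at 56 days, and 59.0% of IR and 48.1% of CON endothelial cells had a Meox2 UMI at 24 hours. Tcf15 had 1018 CPM in IR 24-hours and 1336 in CON 24-hours, and 1073 in IR 56-days and 1415 in CON 56-days. Its ratio was almost the same at both times, 0.762 (0.728 to 0.798) and 0.758 (0.720 to 0.798).

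**Figure D2:**
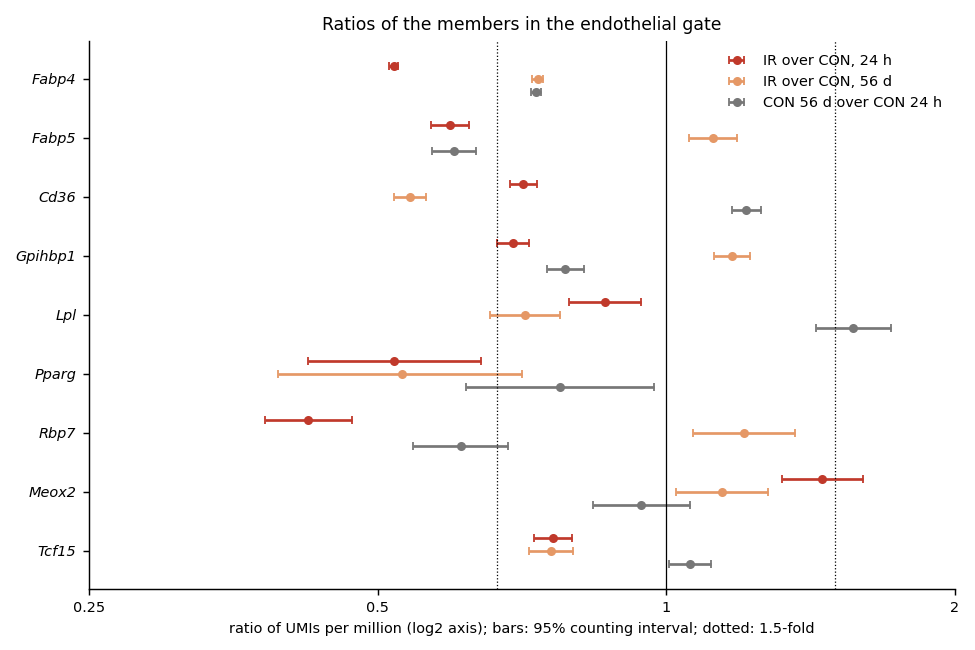
Ratio of levels in the endothelial gate (horizontal log axis) for each gene, with IR set over CON for either time and, as another set, the later CON library over the earlier one, with exact 95% intervals for counting error; dotted lines mark 1.5-fold. Pparg lies near 0.5 at both times, and Fabp5, Gpihbp1 and Rbp7 cross from below 1 at 24 hours to above 1 at 56 days.

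Shielded limbs of the 2 times differed by as much as some IR and CON pairs, which limits what a single pair of libraries can show. Endothelial cells of CON 56-days had less Fabp5 than CON 24-hours (0.600, 0.569 to 0.633), less Rbp7 (0.610, 0.544 to 0.684) and more Lpl (1.57, 1.43 to 1.71). These were the 2 genes at least 1.5-fold lower and the 1 gene at least 1.5-fold higher, where 10% of 10381 genes were lower and 14% higher. Fabp4 was at 0.732 (0.723 to 0.741), about as far from 1 as the IR to CON ratio at 56 days. Meox2 (0.942, 0.839 to 1.06) and Tcf15 (1.06, 1.01 to 1.11) differed least. The mice of CON 56-days were also older, so age and library cannot be told apart.

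Markers of other cells differed between libraries in the same gate. The summed level of 7 neutrophil markers in the endothelial gate was 14.3 CPM in IR 24-hours and 19.2 in CON 24-hours, and 5599 in IR 56-days and 4283 in CON 56-days. That of 9 pericyte markers was 1431 CPM in IR 24-hours and 1283 in CON 24-hours, and 497 in IR 56-days and 443 in CON 56-days. When cells with more than 1 marker of another class were left out, neutrophil markers summed to 2.39 CPM in IR 24-hours and 20.4 in CON 24-hours, and to 15.3 in IR 56-days and 96.1 in CON 56-days. In those cells 4 of the 9 genes were at least 1.5-fold lower in IR at 24 hours and 3 at 56 days, and 0 were higher at either time, where 6.58% of 10650 genes were lower and 16% higher at 24 hours and 13% of 9837 lower and 13.4% higher at 56 days. Adipocyte markers summed to 2.14 to 23.8 CPM in the 4 libraries.

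Capillary cells held more of most members than arterial or venous cells did. The order of levels between capillary, arterial and venous cells was tested with edgeR's quasi-likelihood test on UMI sums per library and gate, with the library as a block and Benjamini-Hochberg adjustment over 7376 genes. Against arterial cells, 7 of the 9 genes were higher in capillary cells and 1, Rbp7, was lower, where 7.78% of all genes were higher and 8.45% lower. Against venous cells, 6 were higher and 1, Fabp4, was lower, where 8.46% of all genes were higher and 9.59% lower. The gates share the libraries, and the 14 sums that entered the fit come from the same 4 cell pools.

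**Figure D3:**
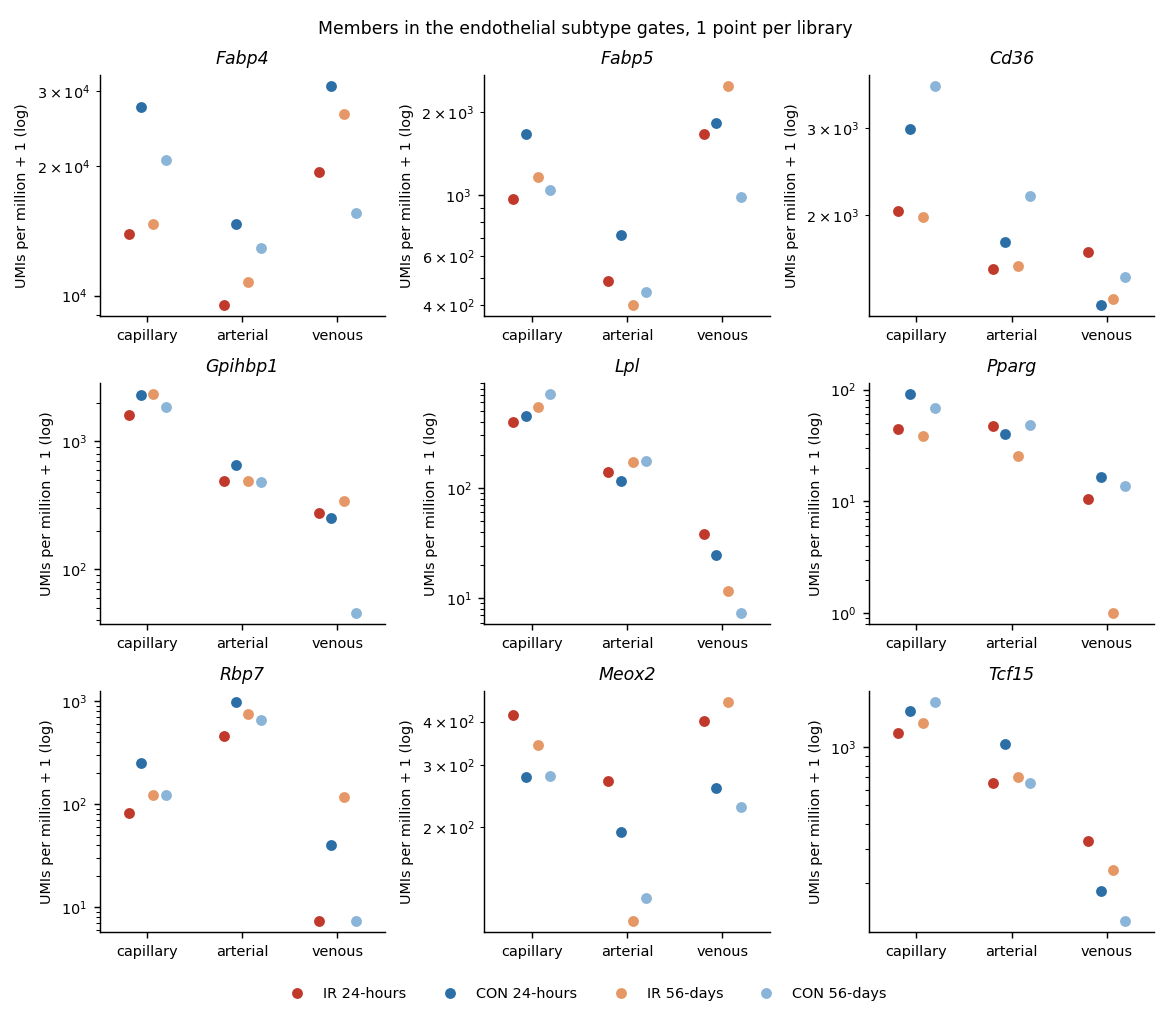
Level of each gene in capillary, arterial and venous endothelial cells (vertical log axis, CPM plus 1) in each of the 4 libraries. Lpl runs from 394 to 719 CPM in capillary cells and from 6.32 to 37.6 in venous cells, and Rbp7 is highest in arterial cells (457 to 985 CPM).

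Lpl showed the steepest gradient between capillary and venous cells, while against arterial cells Gpihbp1 and Rbp7 differed by more. Its capillary level was 394 CPM in IR 24-hours, 451 in CON 24-hours, 543 in IR 56-days and 719 in CON 56-days, against 139.8, 114, 173 and 175 CPM in arterial cells of the same libraries. Venous cells held 12, 3, 1 and 1 Lpl UMIs. The log2 difference was 1.76 (SE 0.17, adjusted p = 5.87e-08 by edgeR) between capillary and arterial cells and 4.24 (SE 0.28, adjusted p = 1.65e-10) between capillary and venous cells, higher in capillary cells in 4 of 4 libraries each time. In IR 56-days 1 arterial cell held 57.7% of the arterial Lpl UMIs.

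Gpihbp1 followed the same order, with 1593, 2285, 2358 and 1865 CPM in capillary cells of IR 24-hours, CON 24-hours, IR 56-days and CON 56-days, against 489, 652, 491 and 480.3 in arterial cells. Venous cells had 276, 250.4, 339 and 44.2 CPM. Capillary cells exceeded arterial ones by 1.94 (SE 0.22, adjusted p = 5.36e-07 by edgeR) and venous ones by 3.07 (SE 0.25, adjusted p = 5.19e-09) on the log2 scale. The lipase and its anchor had the same order of levels, and the 4 libraries did not overlap between the subtypes for either gene.

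Cd36 was spread more evenly. Capillary cells had 2044, 2987, 1983 and 3665 CPM in the 4 libraries in that order, arterial cells 1555, 1764, 1575 and 2191, and venous cells 1681, 1314, 1355 and 1497. The log2 difference was 0.56 (SE 0.13, adjusted p = 0.00395 by edgeR) from arterial and 0.67 (SE 0.14, adjusted p = 0.000886) from venous cells. Without the library as a block, the first of these had an adjusted p of 0.103.

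The carriers did not follow the order of Lpl and Gpihbp1. Fabp4 stood at 13943, 27531, 14667 and 20662 CPM in capillary cells, at 9492, 14695, 10730.4 and 12887 in arterial cells, and at 19418, 30856, 26467 and 15536 in venous cells. Capillary cells exceeded arterial cells (log2 0.65, SE 0.13, adjusted p = 0.000637 by edgeR), although not without the block (adjusted p = 0.121), and lay below venous cells (log2 -0.43, SE 0.13, adjusted p = 0.0215), with CON 56-days the exception. That second difference had an adjusted p of 0.134 without IR 24-hours, 0.0530 without CON 24-hours, 0.307 without IR 56-days, 0.404 without the block, 0.395 in cells free of other markers and 0.0551 by DESeq2. Fabp5 was higher in capillary than arterial cells (log2 1.21, SE 0.24, adjusted p = 0.000713). Its difference from venous cells did not pass (log2 -0.65, SE 0.24, adjusted p = 0.0665 by edgeR) but passed without IR 56-days (adjusted p = 0.0358, log2 -0.45).

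Rbp7 had the reverse order between capillary and artery. Capillary cells of IR 24-hours, CON 24-hours, IR 56-days and CON 56-days held 81.0, 247, 120.3 and 122 CPM, against 457, 985, 746 and 655 in arterial cells, and venous cells held 2, 5, 11 and 1 UMIs. Capillary cells lay below arterial cells (log2 -2.39, SE 0.20, adjusted p = 6.4e-09 by edgeR, lower in 4 of 4 libraries) and above venous cells (log2 2.00, SE 0.38, adjusted p = 0.000407). Of the 11 venous UMIs in IR 56-days, 81.8% came from 1 cell.

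Among the transcription factors, Tcf15 was higher in capillary cells than in arterial cells (log2 0.93, SE 0.18, adjusted p = 0.000493 by edgeR) and venous cells (log2 2.53, SE 0.21, adjusted p = 6.54e-09). It had 1179, 1520.1, 1327 and 1704 CPM in capillary cells of the 4 libraries, 653, 1033, 695 and 648 in arterial cells, and 326, 179.9, 233 and 126 in venous cells. Meox2 was higher in capillary than arterial cells (log2 0.94, SE 0.18, adjusted p = 0.000356), but its difference from venous cells did not pass (log2 -0.13, SE 0.19, adjusted p = 0.744 by edgeR). Capillary cells held 415, 277, 341 and 279 CPM of Meox2, beside 402, 258, 455 and 228 in venous cells, so the pair had different vein to capillary gradients in these libraries. Pparg was higher in capillary than venous cells (log2 2.36, SE 0.43, adjusted p = 0.000253), and its difference from arterial cells did not pass (log2 0.43, SE 0.22, adjusted p = 0.226 by edgeR, higher in 3 of 4 libraries).

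Within capillary cells the ratios of IR to CON followed those of the whole gate. At 24 hours Fabp4 (0.506), Fabp5 (0.577), Pparg (0.476) and Rbp7 (0.329) were at least 1.5-fold lower and 0 genes at least 1.5-fold higher, where 6.41% of 10694 genes were lower and 18.1% higher. At 56 days Cd36 (0.541) and Pparg (0.550) were at least 1.5-fold lower and 0 higher, where 13.5% of 9670 genes were lower and 13% higher. Meox2 was at 1.498 (1.34 to 1.67) at 24 hours, just inside 1.5-fold, and at 1.22 (1.08 to 1.38) at 56 days. Rbp7, at 1.21 in the whole gate at 56 days, was at 0.983 (0.804 to 1.20) in capillary cells. The capillary gate itself rests on markers that moved: Car4, the carbonic anhydrase of the capillary surface, was at 0.270 (0.234 to 0.310) in endothelial cells at 24 hours and 0.184 (0.137 to 0.243) at 56 days, and Timp4 at 0.357 (0.335 to 0.381) and 0.668 (0.625 to 0.713). Capillary cells made up 69.2% of IR and 76.0% of CON endothelial cells at 24 hours, and 66.8% of IR and 77.2% of CON cells at 56 days. The part of these markers in the ratios was not tested.

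Single capillary cells showed the Fabp4 difference in their medians at both times. The median cell had 11564 CPM in IR 24-hours and 25097 in CON 24-hours, and 12637 in IR 56-days and 18618 in CON 56-days. The upper quartile of IR 24-hours, 17820 CPM, lay near the lower quartile of CON 24-hours, 16736 CPM. Cd36 had medians of 1789 CPM in IR and 2695 in CON at 24 hours, and 1731 in IR and 3409 in CON at 56 days. For Meox2 the median capillary cell had 294 CPM in IR 24-hours and 221 in IR 56-days. The median was 0 in both CON libraries, where 50.4% (24 hours) and 53.3% (56 days) of cells held no Meox2 UMI. A median is 0 once most cells hold no UMI, so these medians do not give the size of the difference. The ratios of summed levels were 1.498 at 24 hours and 1.22 at 56 days. Capillary cells had a median of 3373 UMIs in IR and 3483 in CON at 24 hours. At 56 days the IR cells were deeper, at 3614 UMIs beside 2958 in CON. The shares without a Meox2 UMI were not adjusted for this depth.

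**Figure D4:**
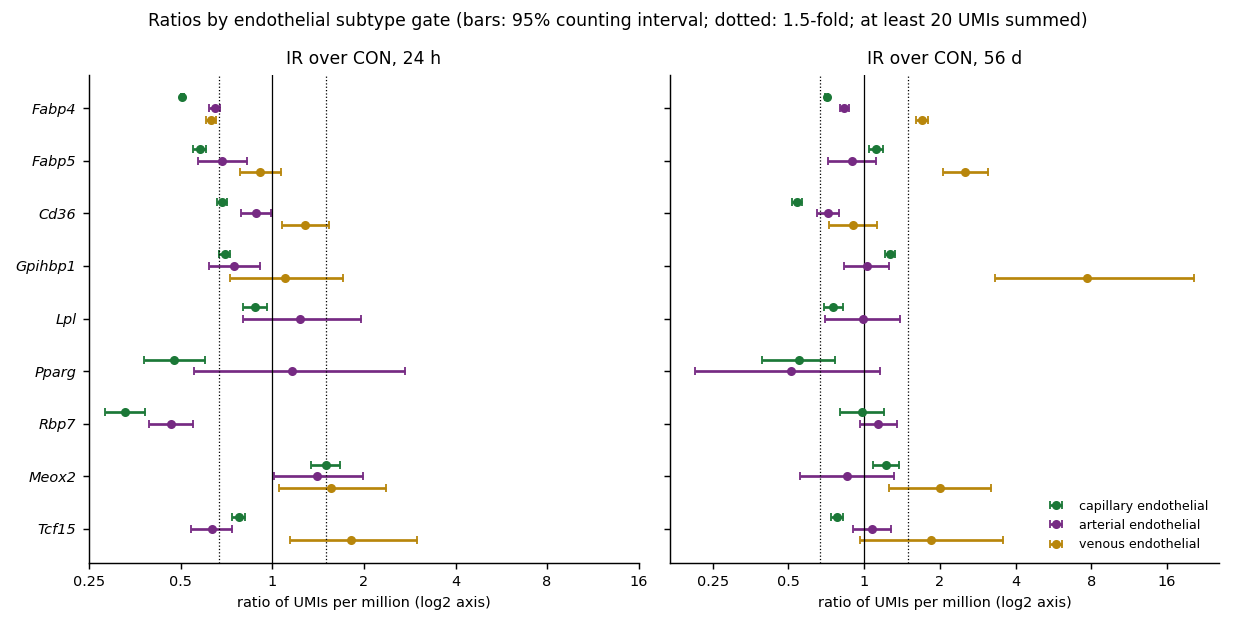
Ratio of IR to CON (horizontal log axis, exact 95% counting intervals) for each gene in capillary, arterial and venous cells at 24 hours and 56 days, drawn where the 2 libraries held at least 20 UMIs of the gene together. Fabp4 lies below 1 in all 3 subtypes at 24 hours (0.506, 0.646 and 0.629), and at 56 days it is above 1 in venous cells (1.70).

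Arterial cells shared the direction of Fabp4 and Rbp7 at 24 hours, with ratios nearer to 1 than in capillary cells. Fabp4 was at 0.646 (0.620 to 0.673), Rbp7 at 0.464 (0.393 to 0.549) and Tcf15 at 0.632 (0.542 to 0.740), the 3 members at least 1.5-fold lower, with 0 higher, where 11.2% of 7108 genes were lower and 22.9% higher. The count of 0 higher depended on single cells for Lpl, as 1 cell held 38.5% of its 26 arterial UMIs in CON 24-hours. Without the cell with most Lpl UMIs in each library, arterial Lpl at 24 hours was at 1.80 (1.06 to 3.26). At 56 days only Pparg passed 1.5-fold in arterial cells, lower at 0.512 (0.212 to 1.16) on 10 UMIs in IR and 19 in CON, where 18.7% of 5928 genes were lower and 15.1% higher. Arterial Rbp7 was at 1.14 (0.963 to 1.35) and Cd36 at 0.719 (0.649 to 0.797) by then. Arterial Lpl, at 0.986 for IR over CON at 56 days, was at 0.490 (0.306 to 0.771) without the cell with most Lpl UMIs in each library, at 0.245 in cells with at most 1 marker of another class, at 0.460 without the 5% of cells with most UMIs and at 0.396 with cells weighted equally.

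Venous cells were few, 65 in IR 24-hours, 23 in CON 24-hours, 21 in IR 56-days and 41 in CON 56-days. At 24 hours Fabp4 was lower (0.629, 0.605 to 0.655), and Meox2 (1.56, 1.05 to 2.35) and Tcf15 (1.81, 1.15 to 2.99) were higher by at least 1.5-fold, where 13.9% of 3906 genes were lower and 26.2% higher. At 56 days 5 members were at least 1.5-fold higher in IR and 0 lower, where 29.7% of 2133 genes were higher and 19.6% lower. These were Fabp4 (1.70, 1.61 to 1.80), Fabp5 (2.52, 2.05 to 3.11), Gpihbp1 (7.66, 3.32 to 20.6), Meox2 (2.00, 1.26 to 3.21) and Tcf15 (1.84, 0.959 to 3.56, an interval that includes 1). The Gpihbp1 ratio rests on 32 UMIs in IR and 7 in CON, and 1 cell held 53.1% of the 32. Without the cell with most UMIs in each library the ratio was 5.51 (1.90 to 19.4). Over the other alternatives, thinning left aside, it ran from 2.73 to 22.5. Thinned venous cells held few Gpihbp1 UMIs, and their IR and CON levels at 56 days lay close together. The venous marker Vwf was at 0.479 (0.372 to 0.612) in the same cells, and CON 56-days was also low for Fabp4 beside CON 24-hours (0.503, 0.479 to 0.530), in a contrast where 26.5% of 2383 genes were at least 1.5-fold lower and 18.9% higher. Their part in the venous ratios was not tested.

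Outside endothelium several of the 9 genes were found in other classes, Lpl and Meox2 among them in FAPs. The contrast of gates was tested by edgeR's quasi-likelihood test over 11032 genes on 42 sums of 12 gates. In that fit 8 of the 9 genes were higher in endothelial cells than in FAPs and 0 lower, where 19.2% of all genes were higher and 18.5% lower. Lpl was the exception, with a log2 difference of 0.01 (SE 0.25, adjusted p = 0.980 by edgeR), higher in endothelium in 2 of 4 libraries. FAPs, the stromal cells that can become fat cells, held 357 CPM of Lpl in IR 24-hours and 429 in CON 24-hours, and 404 in IR 56-days and 457 in CON 56-days. Their 182, 117, 112 and 333 Lpl UMIs stood beside 0.119 to 0.810 UMIs that free endothelial RNA would bring at the ratio of Lpl to Fabp4. FAP Lpl was at 0.831 (0.655 to 1.06) in IR over CON at 24 hours and at 0.883 (0.707 to 1.10) at 56 days, both intervals including 1, and at 1.11 and 1.12 with cells weighted equally.

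**Figure D5:**
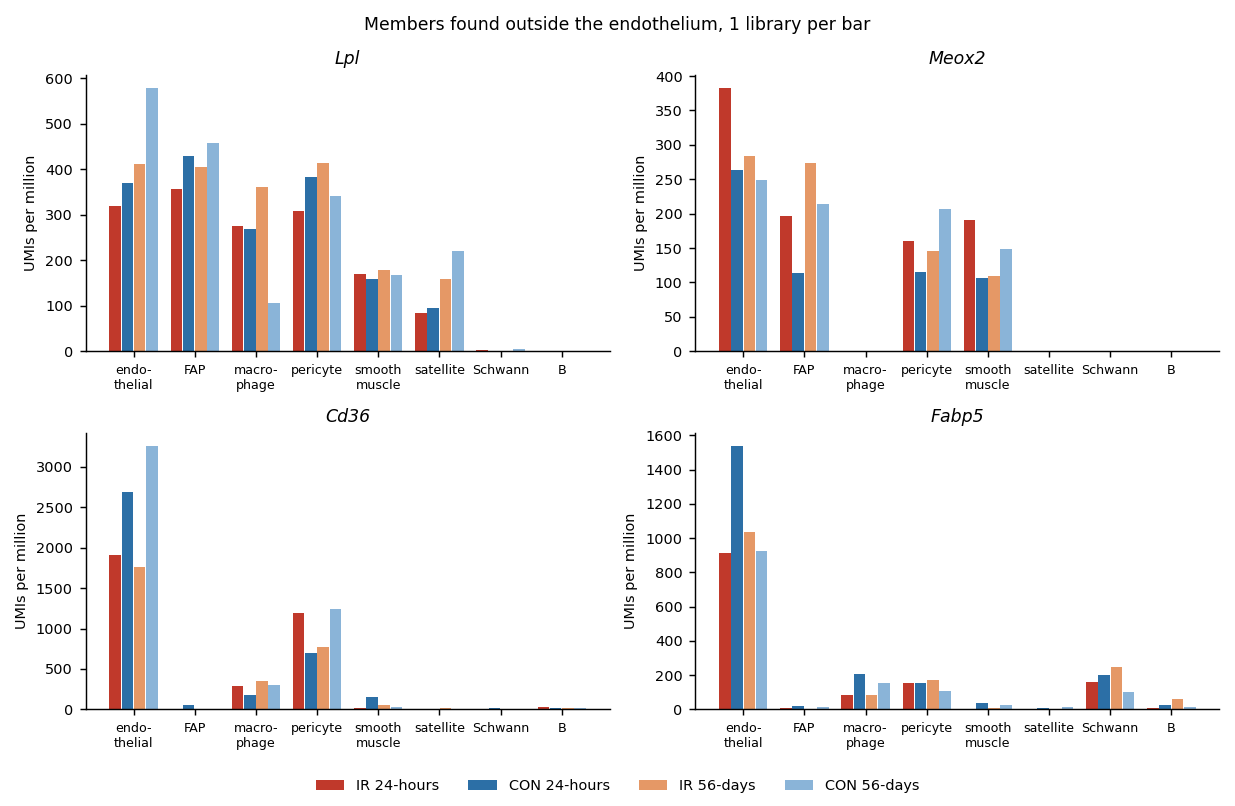
Levels of Lpl, Meox2, Cd36 and Fabp5 by cell class (CPM, vertical axis from 0) in the 4 libraries, 1 bar each, IR left of CON at each time. Lpl is at like levels in endothelial cells, FAPs and pericytes, and Meox2 has 0 UMIs in macrophages.

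Meox2 was higher in endothelium than in FAPs by a narrow margin (log2 0.59 for endothelial over FAP, SE 0.22, adjusted p = 0.0394 by edgeR, 4 of 4 libraries). That call was lost without IR 24-hours (adjusted p = 0.196), without CON 24-hours (0.311), without CON 56-days (adjusted p = 0.0896) and without the block (adjusted p = 0.102). FAPs had 195.9 CPM of Meox2 in IR 24-hours and 114 in CON 24-hours, and 274 in IR 56-days and 214 in CON 56-days. The ratio was 1.72 (1.14 to 2.67) at 24 hours and 1.28 (0.960 to 1.69) at 56 days. Over the alternatives the first ran up to 5.65 and the second from 0.809 to 2.79; both 5.65 and 0.809 came from cells with at most 1 marker of another class, so the side of 1 at 56 days depended on the gate. It was the 1 member at least 1.5-fold higher in IR FAPs at 24 hours, and Fabp4 was the 1 lower, where 22.7% of 5794 genes were higher and 10.2% lower. FAP Fabp4 was at 66.6 CPM in IR and 172 in CON, beside 45.0 and 33.2 CPM in B cells. A Fabp4 UMI was in 22.2% of IR and 31.9% of CON FAPs, both above the B-cell shares given before. The same FAPs held other RNA of endothelium, with 2 Gpihbp1, 4 Cd36 and 2 Tcf15 UMIs in IR and 7, 15 and 3 in CON. The part of endothelial RNA in FAP Fabp4 and its ratio was not tested. At 56 days 0 of the 2 members measured in FAPs passed 1.5-fold, where 16.8% of 6836 genes were higher and 21.9% lower.

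Macrophages held Lpl and Cd36 above the level of free RNA. Fabp5 was found in a larger share of macrophages than of B cells in each library. After thinning the margin in IR 56-days was narrow, with 3 of 49 macrophages and 2 of 61 B cells. In macrophages 1 cell held 48.1% of the Fabp5 UMIs in IR 24-hours, 44.7% in CON 24-hours, 41.9% in IR 56-days and 19.2% in CON 56-days. Macrophage Pparg was sparse, with 15 UMIs in IR 24-hours, 2 in CON 24-hours, 14 in IR 56-days and 11 in CON 56-days. After thinning it was found in 4 of 46, 0 of 19, 4 of 49 and 0 of 52 macrophages of these libraries. In the fit 7 of the 9 genes were higher in endothelial cells than in macrophages and 0 lower, where 23.2% of all genes were higher and 21.2% lower. The other two, Lpl (log2 0.51, SE 0.26, adjusted p = 0.119 by edgeR) and Pparg (log2 0.48, SE 0.41, adjusted p = 0.369), did not pass, and the Lpl call passed without IR 56-days (log2 0.85, adjusted p = 0.0380). Gpihbp1 and Meox2 had 0 UMIs in macrophages of all 4 libraries, so endothelial cells were at least 699-fold and at least 146-fold higher against a floor of 3 UMIs over the gate. Cd36, a scavenger receptor of macrophages, had 283 CPM in IR 24-hours and 176 in CON 24-hours, and 353 in IR 56-days and 299.7 in CON 56-days. Its 93, 32, 134 and 143 UMIs stood beside 7.42, 1.57, 4.59 and 6.93 that free endothelial RNA would bring at the ratio to Fabp4.

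Lpl in macrophages was at 274 CPM in IR 24-hours and 269 in CON 24-hours, and at 361 in IR 56-days and 107 in CON 56-days. CON 56-days was low beside the other 3 libraries. The ratio was 1.02 (0.711 to 1.47) at 24 hours and 3.37 (2.43 to 4.75) at 56 days, where 1 cell held 41.6% of the IR and 1 cell 25.5% of the CON UMIs. Without those cells the later ratio was 2.71 (1.82 to 4.10). Fabp5 was at 82.3 CPM in IR 24-hours and 209 in CON 24-hours, and at 81.6 in IR 56-days and 153 in CON 56-days, with ratios of 0.394 (0.231 to 0.662) and 0.533 (0.338 to 0.822). CON 24-hours held 21 macrophages only, and the Fabp5, Cd36 and Fabp4 ratios of that time changed side of 1 when cells were weighted equally. In counts, 1 member was at least 1.5-fold lower and 2 higher in IR at 24 hours, where 15.4% of 3833 genes were lower and 31.1% higher, and 1 lower and 2 higher at 56 days, where 23.5% of 5386 genes were lower and 10.3% higher. The second gene higher at 56 days was Pparg, on 14 UMIs in IR and 11 in CON, with an interval of 0.674 to 3.89.

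Pericytes, the mural cells of capillaries, held Cd36 at 1193 CPM in IR 24-hours and 703 in CON 24-hours, and 776 in IR 56-days and 1239 in CON 56-days. The ratio was 1.70 (1.33 to 2.19) at 24 hours and 0.627 (0.478 to 0.819) at 56 days, on opposite sides of 1, and pericyte Cd36 was the 1 member at least 1.5-fold higher at 24 hours with 0 lower, where 21.3% of 4070 genes were higher and 17.8% lower. The 394, 79, 96 and 138 UMIs stood beside 24.4, 4.08, 6.38 and 27.4 that free endothelial RNA would bring. Pericyte Lpl was at 309 CPM in IR 24-hours and 383 in CON 24-hours, and at 412 in IR 56-days and 341 in CON 56-days. Tcf15 was at 451 and 436 CPM in IR and CON at 24 hours and at 210.3 and 251 at 56 days, and Gpihbp1 had 2, 1, 0 and 1 UMIs. At 56 days 2 members were at least 1.5-fold lower (Cd36 and Fabp4) and 1 higher (Fabp5, 21 UMIs in IR and 12 in CON), where 17.1% of 2205 genes were lower and 20.8% higher. Of the pericyte Fabp4 UMIs of that time, 1 cell held 86.0% in IR and 1 cell 41.1% in CON.

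Other genes of the pathway, from 7 lists, lay on both sides of 1 in endothelium. Their counts stand beside 17.4% of all measured genes at least 1.5-fold higher and 5.89% lower at 24 hours, and 12.7% higher and 13% lower at 56 days. Of 14 listed genes of fatty acid uptake and activation, 13 were measured in endothelium at 24 hours, with 4 at least 1.5-fold higher in IR and 0 lower (median log2 0.07), and 12 at 56 days, with 1 higher and 1 lower. Slc27a3, a fatty acid transport protein, was higher in IR at both times (2.57, 1.85 to 3.65, and 2.13, 1.51 to 3.03). Acsl4, which activates arachidonic acid, was at 1.60 (1.17 to 2.24) at 24 hours and 0.544 (0.383 to 0.761) at 56 days. Dbi, an acyl-CoA binding protein, was at 0.785 and 1.25, and Cav2, a caveolin, at 1.03 and 0.774.

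Of 16 genes of lipase control and lipoprotein handling, 15 were measured, with 1 higher and 1 lower at 24 hours (median log2 -0.33) and 3 higher and 3 lower at 56 days (median 0.24). Apoe, an apolipoprotein, was at 0.651 (0.616 to 0.689) and 0.638 (0.591 to 0.688). Hspg2, which encodes perlecan, was at 0.784 and 1.53, Mgll, the monoglyceride lipase, at 0.783 and 1.26, and the lipoprotein receptor Scarb1 at 1.18 and 1.37. Of 16 partners and targets of PPARs, 12 were measured, with 2 higher and 2 lower at 24 hours (median -0.08) and 2 higher and 0 lower at 56 days. Rxra, the partner of Pparg on DNA, was at 0.598 (0.460 to 0.781) at 24 hours and 0.911 (0.676 to 1.22) at 56 days, and Ucp2 was at 0.612 and 1.27. Pdk4, which spares glucose, rested on 45 UMIs in IR and 3 in CON at 24 hours (4.77, 1.53 to 24.0).

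All 12 genes of beta-oxidation were measured, with 0 higher and 1 lower at each time. The gene lower at 24 hours was the thiolase Acaa2 (0.646, 0.552 to 0.757) and at 56 days Cpt1a, which admits fatty acids to mitochondria (0.546, 0.386 to 0.762). Hadha was at 1.23 and 0.786. Of 13 retinoid genes 6 were measured, with 1 higher and 2 lower at 24 hours and 0 past 1.5-fold at 56 days. Among them the retinal reductase Dhrs3 was at 0.577 and 0.682 and the receptor Rarb at 2.32 and 0.973. Among homeobox and bHLH partners, 7 of 8 were measured, 0 passed 1.5-fold at 24 hours and 1 was higher at 56 days, Meox1, the paralogue of Meox2, at 0.797 (0.641 to 0.996) and 1.94 (1.58 to 2.39). The bHLH factors Tcf12 and Tcf4, which can pair with Tcf15, were at 1.42 and 0.899 and at 0.995 and 0.846, and their inhibitor Id3 at 0.742 and 1.01. Of 11 genes of lipid droplets and triglyceride synthesis 9 were measured, with 2 higher and 1 lower at 24 hours and 3 higher and 1 lower at 56 days. Lpin1, a phosphatidate phosphatase, was at 3.07 (1.86 to 5.40) and 1.82 (1.05 to 3.18), Plin3 at 0.878 and 1.73, Plin2 at 0.780 and 1.10, and G0s2, which blocks triglyceride lipase, at 1.22 and 0.562.

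The genes whose levels ran most like each member over 39 sums of a gate and a library, among 9958 genes, were given by Pearson r on log2(CPM + 10), as a description over sums that share libraries. Fabp4 ran closest to Flt1 (0.98), Adgrf5 (0.98) and Gpr4 (0.97), and Gpihbp1 to Ablim3 (0.98), Kdr (0.98) and Bcl6b (0.97). Flt1, Kdr and Esam are among the markers of the endothelial gate and Cd300lg among those of the capillary gate. Tcf15 ran closest to Esam (0.97), Epas1 (0.96) and Adgrf5 (0.96), and Meox2 to Cped1 (0.95), Tmem204 (0.94) and Igfbp7 (0.94). Rbp7 ran closest to Ssu2 (0.95), Dll4 (0.94) and Nepn (0.94), and Pparg to Smagp (0.90), Cd300lg (0.90) and Nxpe4 (0.87). Cd36 ran closest to Scarf1 (0.91), Kitl (0.91) and Esam (0.90), Fabp5 to Dysf (0.90), Kank3 (0.88) and Nrarp (0.88), and Lpl to Gstm1 (0.86), Rras (0.85) and Trip10 (0.80). Between members the highest r was that of Fabp4 with Tcf15 (0.934) and the lowest that of Fabp5 with Lpl (0.310).

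Single capillary cells thinned to 1000 UMIs were also split by whether they held UMIs of Meox2 and Tcf15. In IR 24-hours Lpl was found in 31.2% of cells with both factors, 32.8% with Tcf15 only, 28.7% with Meox2 only and 26.0% with neither. In CON 56-days the shares were 51.2%, 46.7%, 39.3% and 33.6% in the same order. In CON 24-hours they were 29.6%, 29.2%, 61.1% (of 18 cells) and 41.8%, and in IR 56-days 30.2%, 32.9%, 21.4% (of 28 cells) and 35.4%, so cells with both factors had the highest share in CON 56-days but in none of the other 3 libraries.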

How the data were processed

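The deposited matrices hold UMI counts per gene and barcode for 32285 genes, made by the authors with Cell Ranger 5.0.0 on mm10, per the submitters' processing notes. Whether introns or ambient RNA were handled upstream is not given in the sources used here. Counts entered as deposited. Barcodes under 200 genes, under 500 UMIs or over 20% mitochondrial UMIs were dropped, which left 2539, 1336, 969 and 1700 cells of IR 24-hours, CON 24-hours, IR 56-days and CON 56-days. A cell joined the class with most of its markers detected, with at least 3 markers and a lead of 2 over the next class; endothelial subtypes needed 2 markers and a lead of 1. No member is a marker. No doublet caller was run and ambient RNA was not removed; B cells and the ratio to Fabp4 gave its level.

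Ratios of summed counts, scaled to CPM, carry exact conditional binomial 95% intervals, for genes with at least 20 UMIs in both libraries together. With 1 library per group there is no test between IR and CON. Gates were compared with edgeR 4.0.16 (glmQLFit, glmQLFTest, TMM, filterByExpr) in R 4.3.3 on sums of at least 10 cells, with library as a block, since the gates of 1 library share its cell pool, and Benjamini-Hochberg adjustment over all genes; DESeq2 1.42.0 was an alternative. A gene was called at an adjusted p under 0.05. The other tools were Python 3.11.15, numpy 2.4.6, pandas 2.3.3, scipy 1.17.1 and matplotlib 3.10.9. The fits and intervals were tested on simulated data. Promoters are RefSeq's, build GRCm38.p6.

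The 9 members and all lists were chosen with earlier results of these data known. Members are all described. From each list up to 4 measured genes are named, ranked by how far the interval bound nearer to 1 lies from 1 at either time, and for each member the 3 other genes with the highest r over sums of at least 25 cells and genes of at least 200 UMIs. The alternatives were other gate thresholds, a strict gate, filters on cells, thinning, equal weight per cell, other scalings and leaving out a library.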

Additional observations from a re-analysis of the deposited data

Results flagged for a closer look

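For 3 genes the IR to CON ratio in the endothelial gate lay below 1 at 24 hours and above 1 at 56 days. Fabp5 was at 0.595 and 1.12, Gpihbp1 at 0.692 and 1.17, and Rbp7 at 0.423 and 1.21. The difference between the 2 times was not tested, since each ratio compares 1 library with 1 library. For Fabp5 and Rbp7 the CON libraries themselves differed between the times, at 0.600 and 0.610 for CON 56-days over CON 24-hours.

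Barcodes that no gate took, 187 in IR 24-hours, 101 in CON 24-hours, 83 in IR 56-days and 98 in CON 56-days, are outside every comparison above and held more of several members in IR. At 24 hours the ratio was 1.91 for Cd36, 3.46 for Lpl and 3.73 for Meox2. At 56 days it was 2.64 for Fabp4, 2.18 for Fabp5, 2.13 for Cd36, 4.99 for Gpihbp1, 6.06 for Lpl and 1.92 for Tcf15. Ungated Lpl was at 258 CPM in IR 24-hours and 74.6 in CON 24-hours, and at 716 in IR 56-days and 118 in CON 56-days, and 1 cell held 31.2% of its UMIs in IR 24-hours and 1 cell 39.5% in IR 56-days. The median UMIs of these barcodes were 1481 in IR 24-hours and 845 in CON 24-hours, and 1621 in IR 56-days and 3740 in CON 56-days. Cfd, a marker of fat cells, had 19 UMIs in IR 56-days and 3 in CON 56-days (12.6, 3.72 to 66.7). The part of depth, of mixed barcodes and of fat cell RNA in these ratios was not tested.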

How the results depend on the processing

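In endothelium the count of members past 1.5-fold was 4 to 5 at 24 hours, 2 to 3 at 56 days and 2 to 3 between the CON libraries under every alternative run. The ratio of Fabp4 at 24 hours ranged from 0.508 to 0.534, that of Pparg from 0.479 to 0.532 and that of Rbp7 from 0.390 to 0.480. At 56 days the IR to CON ratio of Pparg ranged from 0.504 to 0.642 in endothelium. In capillary cells it ranged from 0.513 to 0.703, the upper end lying inside 1.5-fold. Pparg in CON 56-days over CON 24-hours ranged from 0.710 to 1.06. Leaving out the cell with most UMIs of a gene was chosen after seeing the data.

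Macrophage and FAP counts were not stable. The 3 macrophage members of 24 hours became 1 with 1 gate marker more, in cells with at most 1 marker of another class, without the 5% of cells with most UMIs, thinned and with cells weighted equally, and 5 with no minimum of summed UMIs. The 3 of 56 days became 1 thinned and 5 with no minimum. For FAPs the 2 members of 24 hours became 1 thinned and 7 with no minimum, and the 0 of 56 days became 1 without the 5% of cells with most UMIs, thinned and with equal weights, and 3 with no minimum. Macrophage Fabp5 at 24 hours (0.394) was 1.42 in the strict gate, 7.70 without the 5% and 1.40 with equal weights. Macrophage Cd36 at 24 hours (1.61) was 0.818 without the 5%, 0.661 thinned and 0.983 with equal weights, and Fabp4 (1.92) was 0.633 with equal weights. The cause was not tested.

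Between gates, Meox2 in capillary over venous cells was 0.0189 on the log2 scale with no filter on low counts. Lpl in endothelial cells over FAPs was -0.205 with RLE size factors and -0.0666 with no filter, and ran from -0.197 (without CON 56-days) over -0.000671 (without IR 56-days) to 0.0577 as libraries were left out, none past the threshold. Leaving out each library in turn gave 8 to 8 members called between capillary and arterial, 6 to 7 between capillary and venous, 7 to 8 between endothelial cells and FAPs, and 7 to 8 between endothelial cells and macrophages. With no replicate block the counts were 6, 6, 7 and 7, and with DESeq2 8, 6, 8 and 7, in that order of contrasts. No paired analysis was possible because, at each time, IR and CON have 1 library each; a model of both times together, with time as a block, was not run.

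A single library per group, pooled from 3 limbs, gives no replicate error, so the intervals understate the uncertainty of every IR to CON ratio. Few cells limit the venous, FAP and macrophage values, and Pparg is limited by its depth.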
